A study of Homo sapiens and Mus musculus with 10 samples.

Results

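The genes described here encode the proteasome, the protease that degrades ubiquitin-tagged proteins, together with the factors that assemble and activate it. Members were taken by gene symbol from both expression tables: every row whose symbol is PSM followed by a letter from A to G and a number, except for 1 symbol that the rule leaves out. The rule found 47 of the 27800 symbols of the human table and 47 of the 24493 symbols of the mouse table. The rule reads symbols and no values.

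The data are 10 RNA sequencing libraries of cultured cells. MOLM-13 is a human acute myeloid leukemia cell line, and it was grown with the solvent DMSO (3 libraries) or with 4 µM WM-1119 for 4 days (3 libraries). ER-Hoxa9 is a mouse line of myeloid progenitors, known for a Hoxa9 fusion that estradiol keeps active, and it was grown with DMSO (2 libraries) or with 2 µM WM-1119 for 4 days (2 libraries). WM-1119 is a small-molecule inhibitor of the lysine acetyltransferase KAT6A, and the series asked how inhibition of this enzyme alters the transcriptional program of leukemia cells. All ER-Hoxa9 cultures, controls included, also received β-estradiol and medium conditioned with stem cell factor. Each line is a single cell line, the doses differ between them, and the labels do not say whether the libraries of a group came from separate cultures, so the p-values below measure the spread between these libraries. Values are TPM, transcript abundances that are scaled for length and sum to the same total in every library. Sequencing depth is not kept in TPM. The human and mouse tables were normalized separately.

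The proteasome core is a barrel of stacked rings, in which alpha subunits form the gate and beta subunits carry the proteolytic sites. The regulatory particle caps the barrel, with ATPase subunits that unfold substrates and non-ATPase subunits that receive and strip ubiquitin. In blood cells and under interferon, the catalytic subunits PSMB8 and PSMB10 replace PSMB5 and PSMB7 in newly built particles, which are then called immunoproteasomes, and PSME1 and PSME2 form an alternative cap known for its part in peptide supply to antigen presentation.

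Promoter sequence is shown first because the immunoproteasome and cap genes share a short element near their start. In the RefSeq promoter table (GRCh38.p14), 41 of the 47 human members had a window, which spans 250 bases before and 50 bases after the gene start. A gene could have several windows with different starts, as PSMA4 did, and was counted if any of them held a match. The interferon-stimulated response element, written GAAA, any pair of bases and GAAA again and searched on both strands, was present in 7 of the 41 members (17.1%) and in 1195 of all 27305 genes with a window (4.38%). Read 5′ to 3′ on the gene's strand, 30 bases around each match are shown, with the match in capitals.
PSMB8: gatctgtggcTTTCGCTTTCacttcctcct
PSMB10: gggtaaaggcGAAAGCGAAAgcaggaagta
PSME1: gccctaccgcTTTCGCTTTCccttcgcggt
PSME2: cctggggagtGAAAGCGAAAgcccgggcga
PSMG4: ttccggggccGAAAGCGAAAgcgcgctcgg
PSMA4: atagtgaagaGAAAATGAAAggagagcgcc
PSMB4: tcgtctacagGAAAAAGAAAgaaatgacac

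The 5 sequences printed first hold the same 10 letters on one strand or the other, and those of PSMA4 and PSMB4 differ from them at the free positions. In PSMB8 the shown stretch is chr6:32844032-32844061 on the minus strand, in PSMB10 chr16:67936852-67936881 on the minus strand, and in PSME1 chr14:24136189-24136218 on the plus strand. The PSME2 stretch is chr14:24146619-24146648 on the minus strand, and the PSMG4 stretch is chr6:3258904-3258933 on the plus strand. The PSMA4 stretch is chr15:78540155-78540184 and the PSMB4 stretch is chr1:151399495-151399524, both on the plus strand. Counted with no zero from the first base of the gene, the match began at -4 in PSMB8, -21 in PSMB10, 6 in PSME1, -28 in PSME2, -33 in PSMG4, -68 in PSMB4 and -240 in PSMA4. A match of letters is a description of sequence, not a measured binding site.

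For a catalytic subunit, PSMB10, and a cap subunit, PSME2, the 250 bases before the RefSeq start are shown at greater length, with the element again in capitals. The PSMB10 stretch is chr16:67936851-67937100 and the PSME2 stretch is chr14:24146611-24146860, both on the minus strand.
PSMB10: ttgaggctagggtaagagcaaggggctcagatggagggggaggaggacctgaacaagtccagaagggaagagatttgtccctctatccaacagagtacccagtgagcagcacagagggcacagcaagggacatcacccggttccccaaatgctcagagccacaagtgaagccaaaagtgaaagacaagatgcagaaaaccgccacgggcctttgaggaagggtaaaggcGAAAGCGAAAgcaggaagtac
PSME2: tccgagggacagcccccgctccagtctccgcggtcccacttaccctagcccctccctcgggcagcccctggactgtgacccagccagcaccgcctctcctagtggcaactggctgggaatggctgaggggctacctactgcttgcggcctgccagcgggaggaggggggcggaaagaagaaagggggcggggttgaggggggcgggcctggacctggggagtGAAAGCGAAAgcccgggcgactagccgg

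A second element was the core TGACNNNGC of the antioxidant response element bound by the proteasome gene regulators NFE2L1 and NFE2L2. It was present in 14 of the 41 members with a window (34.1%) and in 4384 of all 27305 genes with a window (16.1%). These 14 members were PSMA4, PSMB3, PSMC4, PSMC5, PSMD1, PSMD3, PSMD5, PSMD9, PSMD12, PSME1, PSME2, PSME4, PSMG1 and PSMG2. PSME1 and PSME2 thus held both elements in the same window. PSMA4 held both as well, but in windows with different starts.

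In GENCODE release 29 on GRCh38, PSMB8 spans chromosome 6, 32840717 to 32844703 on the minus strand, and PSMB10 spans chromosome 16, 67934502 to 67937087 on the minus strand. PSME1 (24136158 to 24138967, plus strand) and PSME2 (24143362 to 24147570, minus strand) lie near each other on chromosome 14. The RefSeq starts used for the windows lie inside these GENCODE spans, so the 250 bases of PSME2 fall wholly and those of PSMB10 mostly within the GENCODE gene.

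Before any comparison, the levels of the members were described in DMSO. In MOLM-13, 45 of the 47 members passed the filter of a mean of at least 1 TPM. PSMA8, the testis form of an alpha subunit, and PSMB11, the thymus form of a catalytic subunit, were listed at 0 in all 6 MOLM-13 libraries. The DMSO mean of the other 45 ran from 13.9 ± 4.57 TPM for PSME4 to 362 ± 99.4 TPM for PSMB1 (SD, n = 3), with a median over members of 88.0 TPM. In ER-Hoxa9, Psma8 was again listed at 0 in every library and Psmb11 lay between 0.315 and 0.51 TPM. The other 45 ran from 12.9 ± 0.575 TPM for Psmf1 to 375 ± 4.35 TPM for Psma6 (SD, n = 2), with a median of 111 TPM.

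Core subunits had higher median levels than the assembly factors of the ATPase ring in both lines. The median DMSO level was 146 TPM over 7 alpha and 142 TPM over 7 constitutive beta subunits in MOLM-13, against 19.98 TPM over the chaperones of the ATPase ring PSMD5, PSMD9 and PSMD10. In ER-Hoxa9 the same medians were 153, 332 and 28.8 TPM. These are levels of RNA, and subunits that occur once per ring did not have equal levels: PSMB1 stood at 362 TPM and PSMB2 at 26.2 TPM in MOLM-13, although both are constitutive beta subunits without a proteolytic site.

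Across the 45 members with values in both lines, the order of DMSO levels was similar but not the same (Spearman's rho 0.682 and Pearson's r of log2 means 0.713 across members, which share libraries). PSMB5, the chymotrypsin-like subunit, was at 74.4 ± 25.0 TPM in MOLM-13 and Psmb5 was at 338 ± 17.8 TPM in ER-Hoxa9. PSMB10 was at 135 ± 18.1 TPM and Psmb10 at 46.3 ± 4.40 TPM, the opposite order. The libraries of the lines did not overlap for either gene, but each level is relative to the other transcripts of its own table, and the species were quantified against different genomes. PSMB2 (26.2 and 151 TPM) and PSMA5 (29.02 and 152 TPM) also stood far apart.

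**Figure D1:**
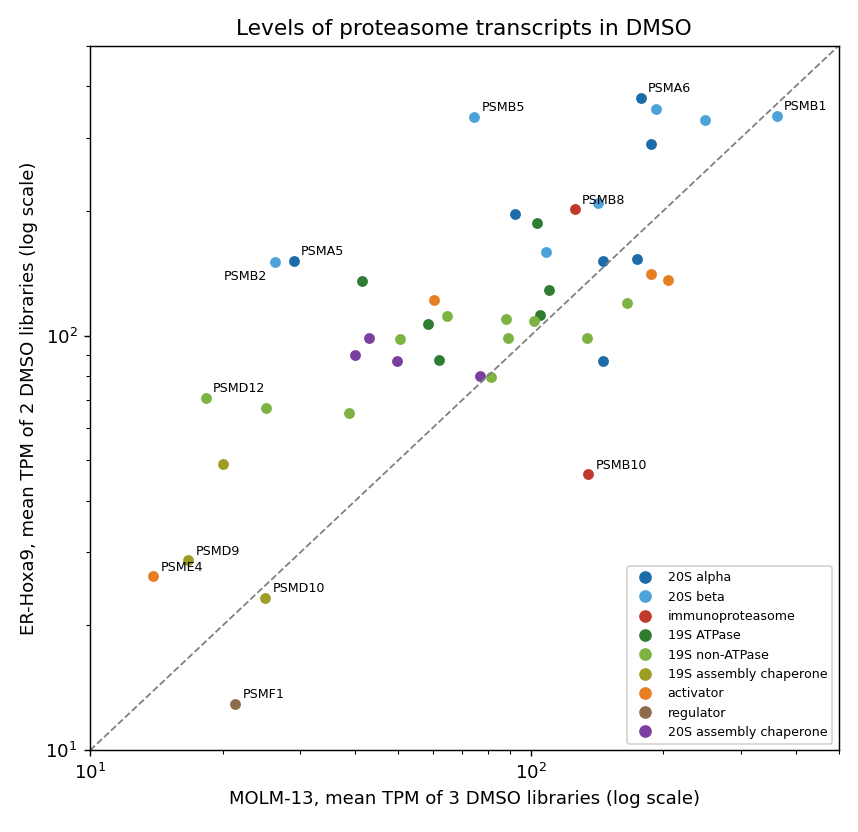
Mean DMSO level of each of the 45 members in MOLM-13 (horizontal axis, TPM, log scale, n = 3 libraries) against ER-Hoxa9 (vertical axis, TPM, log scale, n = 2), with human symbols for both. The dashed line marks equal TPM, and most members lie above it, PSMB5, PSMB2 and PSMA5 far above, while PSMB10 lies far below.

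As facts of the whole series, KAT6A, the target of the inhibitor, was at 18.4 ± 4.63 TPM in DMSO and 18.4 ± 3.96 TPM with WM-1119 in MOLM-13 (SD, n = 3), and its mRNA level does not measure inhibition of the enzyme. Myeloid progenitor markers were present in both lines, with 9 of 10 tested in MOLM-13 and 10 of 10 in ER-Hoxa9. In ER-Hoxa9 their summed level was 1668 to 2986 TPM in DMSO and 3497 to 3502 TPM with WM-1119. There 8 of 10 had a positive change, beside 71.9% of all genes. The summed level of 4 B cell markers was 1.82 to 4.43 TPM in DMSO and 8.62 to 12.5 TPM with WM-1119, most of it Cd79a. That of 4 megakaryocyte markers was 22.6 to 40.2 and 48.1 to 56.1 TPM. Among these, Gp9 was at 5.67 and 11.5 TPM in DMSO and 28.6 and 26.0 TPM with WM-1119. The groups of Itga2b (log2 change -0.16) and Pf4 (0.89) overlapped, and Ppbp was too low to be tested. Of the 4 T cell markers, Cd3e and Cd2 were listed at 0, as was the B cell marker Ms4a1, while Cd3d (7.37 and 6.76 TPM in DMSO, 5.51 and 5.33 TPM with WM-1119) and Lck (3.12 and 2.92 TPM, then 2.79 and 1.60 TPM) were lower in both WM-1119 libraries. In MOLM-13 all 9 tested myeloid progenitor markers had a positive change, beside 61.5% of all genes, with a median of 0.18 and 0 called. The groups of SPI1 and CSF3R did not overlap, as in 4.54% of all genes upward. Their summed level was 5657 to 10930 TPM in DMSO and 6802 to 10960 TPM with WM-1119. The summed level of 4 T cell markers there was 3.09 to 17.1 TPM in DMSO and 1.70 to 7.05 TPM with WM-1119, nearly all of it CD3D, with CD2 and LCK listed at 0. In these bulk libraries, a change in the share of a kind of cell and a change of RNA per cell cannot be told apart, and the part of these markers in the values below was not tested.

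In MOLM-13 no proteasome gene passed the test of WM-1119 against DMSO. limma with Benjamini-Hochberg adjustment over the 12436 genes tested called 0 of 45 members higher and 0 lower, against 0% of all genes higher and 0.00804% lower. At an unadjusted p under 0.05 the count was also 0 of 45 in either direction, where 2.08% of all genes were higher and 0.965% lower. The lowest unadjusted p of a member was 0.16, that of PSMB8, with an adjusted p of 1. In no member did the 3 WM-1119 libraries lie on one side of all 3 DMSO libraries, while 4.54% of all genes did so upward and 2.43% downward.

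Most members nevertheless had a small positive log2 change, the mean of log2(TPM + 1) with WM-1119 minus that with DMSO. It was positive in 36 of 45 members (80%) and in 61.5% of all genes and negative in 9 members (20%) and 38.5% of all genes, with a median of 0.08 over members and 0.05 over all genes. When libraries were scaled by median-of-ratios size factors in place of their TPM total, 25 members (55.6%) and 47.5% of all genes were positive, with medians of 0.02 and -0.01. The members' median turned negative when 1 library was left out, to -0.071 without DMSO library 3 and -0.055 without WM-1119 library 1, and it was 0.254 without DMSO library 1, 0.18 without WM-1119 library 3, 0.135 without WM-1119 library 2 and 0.051 without DMSO library 2. Each of these fits left a same-numbered library without its partner. The median SE of a member was 0.24 in the fit without a block.

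**Figure D2:**
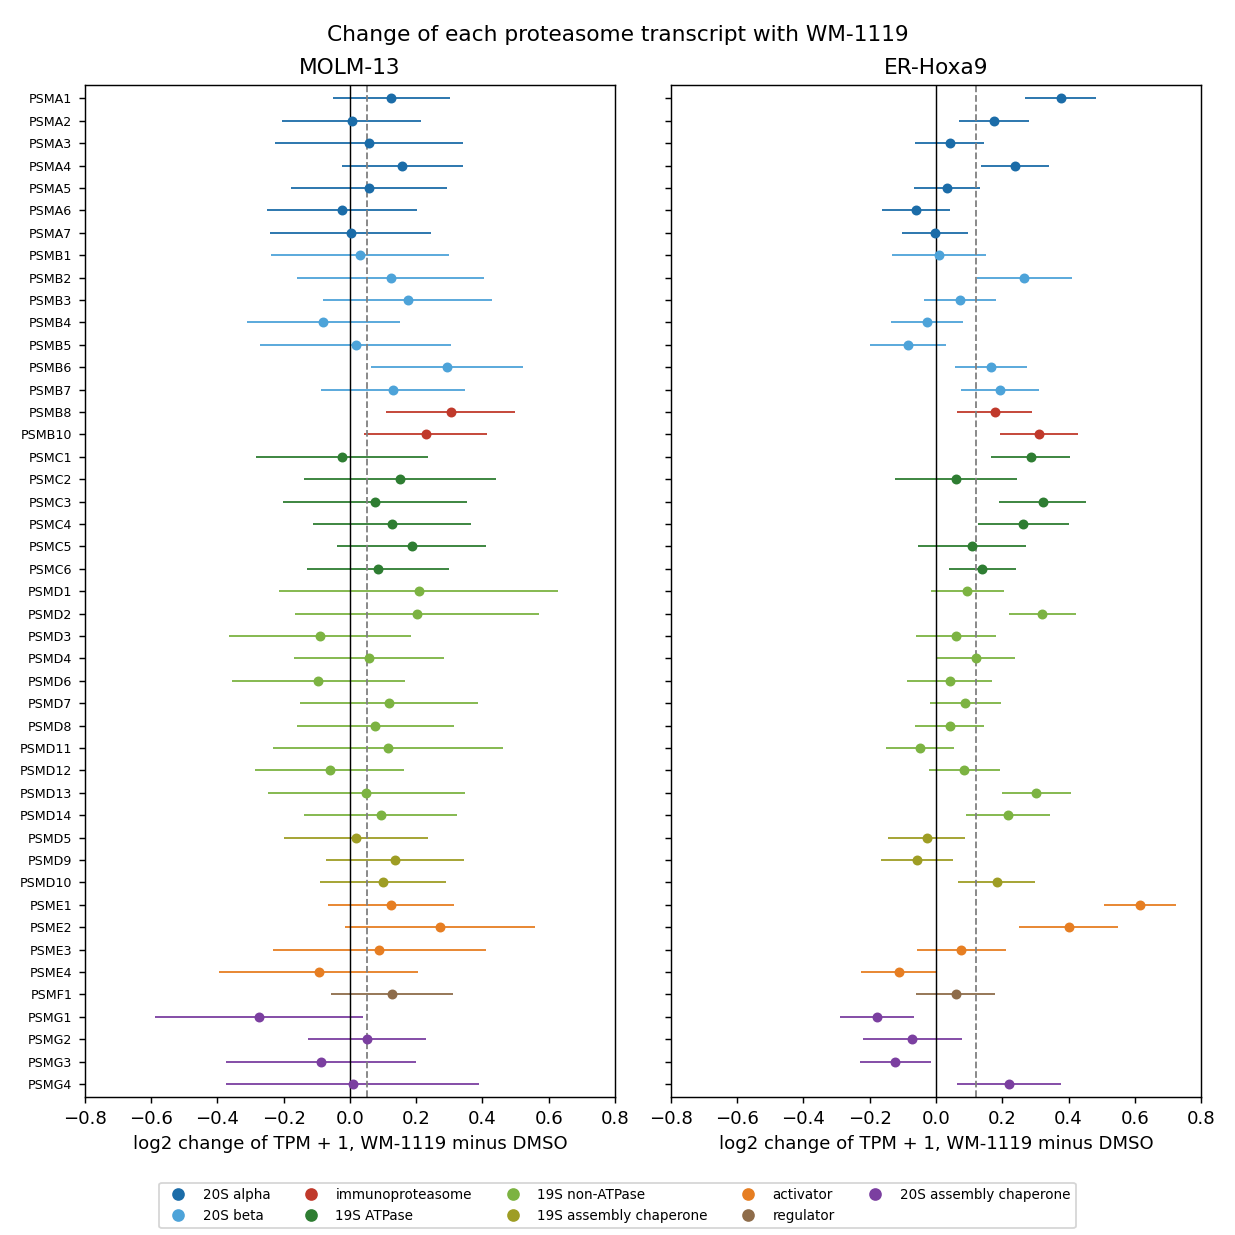
Log2 change with WM-1119 against DMSO, on the log2(TPM + 1) scale, for the 45 tested members of each line, coloured by class, with bars of 1 SE on each side and a dashed line at the median of all genes tested. In MOLM-13 the bars are wide and PSMB8 has the highest value (0.30), and in ER-Hoxa9 Psme1 stands furthest from 0 (0.62).

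Alpha subunits, which form the outer rings, were positive in 6 of 7 with a median log2 change of 0.06. Their largest change was that of PSMA4, at 202, 165 and 157 TPM in DMSO libraries 1, 2 and 3 and 212, 176 and 195 TPM in the WM-1119 libraries (log2 change 0.16, SE 0.18). The groups overlapped, and each WM-1119 library was above the DMSO library of its number. At the other end, PSMA6 had a log2 change of -0.02 (SE 0.23).

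Of the 7 constitutive beta subunits, 6 were positive, with a median of 0.12. PSMB6, the caspase-like subunit, was at 139, 96.6 and 89.0 TPM in DMSO and 153, 118 and 122 TPM with WM-1119 (log2 change 0.29, SE 0.23). All 3 same-numbered pairs were higher with WM-1119, but DMSO library 1 lay above WM-1119 libraries 2 and 3. PSMB5, at 103, 64.4 and 56.0 TPM in DMSO and 95.5, 62.3 and 64.6 TPM with WM-1119, had a log2 change of 0.02 (SE 0.29). PSMB7, the trypsin-like subunit, had one of 0.13 (SE 0.22), and PSMB4, a beta subunit without a proteolytic site, had the lowest at -0.08 (SE 0.23).

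The immunoproteasome subunits had the highest class median, 0.27, over the 2 genes tested. PSMB8 was at 147, 108 and 122 TPM in DMSO (mean 126 ± 19.8, SD, n = 3) and 174, 139 and 152 TPM with WM-1119 (155 ± 18.0), a log2 change of 0.30 (SE 0.20). PSMB10 was at 154, 134 and 118 TPM in DMSO (135 ± 18.1) and 174, 143 and 158 TPM with WM-1119 (158 ± 15.4), a log2 change of 0.23 (SE 0.19). In both genes every WM-1119 library exceeded the DMSO library of the same number, and in both the groups overlapped. PSMB8 per PSMB5 transcript, a ratio of TPM, was 1.43, 1.68 and 2.19 in DMSO and 1.83, 2.23 and 2.36 with WM-1119, so the pairs were ordered alike here too and DMSO library 3 lay above WM-1119 library 1. PSMB10 per PSMB7 transcript was 0.923, 0.934 and 1.005 in DMSO and 0.930, 0.966 and 1.186 with WM-1119, and also overlapped.

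PSMB8 is overlapped on the opposite strand by the antisense gene PSMB8-AS1, which was at 19.9, 16.8 and 15.4 TPM in DMSO and 30.0, 24.8 and 25.6 TPM with WM-1119. Its groups did not overlap, with a log2 change of 0.60 (SE 0.18) and a limma Benjamini-Hochberg adjusted p of 1. Whether the authors' quantification used strand is not given in the sources used here, and how far reads of the antisense gene and of PSMB8 were separated was not tested, so the value of PSMB8 is uncertain.

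ATPases of the regulatory particle were positive in 5 of 6 with a median of 0.11. PSMC5 had the largest change of this ring, at 135, 106 and 89.0 TPM in DMSO and 148, 121 and 106 TPM with WM-1119 (log2 change 0.19, SE 0.23), and PSMC1 the lowest at -0.02 (SE 0.26). PSMC2 (log2 change 0.15) and PSMC3 (0.08) lay between them. Non-ATPase subunits were positive in 8 of 11 with a median of 0.08. PSMD1 and PSMD2, the large scaffold subunits of the base, had the largest changes, 0.21 (SE 0.42) and 0.20 (SE 0.37). PSMD1 was at 60.9, 33.5 and 21.7 TPM in the DMSO libraries, so its spread between libraries of one group was far larger than its change. The WM-1119 libraries, at 58.8, 44.3 and 26.6 TPM, had the same order by number. With the library number as a block the SE of PSMD1 was 0.106. PSMD6 was at 82.3, 59.4 and 51.8 TPM in DMSO and 78.0, 55.5 and 47.8 TPM with WM-1119 (log2 change -0.10, SE 0.26), the lowest of its class. PSMD8, the most abundant of the class, had a log2 change of 0.08, PSMD11 one of 0.12 and PSMD12, the least abundant, one of -0.06.

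Chaperones of the base (PSMD5, PSMD9 and PSMD10) had changes of 0.02 to 0.14. Among the activators, PSME2 was at 248, 129.7 and 186 TPM in DMSO and 268, 173 and 228 TPM with WM-1119 (log2 change 0.27, SE 0.29). Its partner PSME1 was at 235, 192 and 188 TPM and 260.1, 207 and 204 TPM (log2 change 0.12, SE 0.19). Every same-numbered pair was higher with WM-1119 in both, and both pairs of groups overlapped. The nuclear activator PSME3 (log2 change 0.09) and the large activator PSME4 (-0.09) had the other values, and PSMF1, a protein known to bind the core and slow it in vitro, was at 0.13.

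The chaperones that build the alpha ring, PSMG1 to PSMG4, had a median of -0.04. PSMG1 had the most negative change of all members, at 68.5, 42.0 and 39.0 TPM in DMSO and 58.4, 34.0 and 31.6 TPM with WM-1119 (log2 change -0.27, SE 0.31). All 3 pairs were lower with WM-1119, and the groups overlapped. PSMG2 had a log2 change of 0.05, PSMG3 one of -0.09 and PSMG4 one of 0.01. PSMG4 differed from the rest in its libraries too, with its highest value in library 3 of both groups (55.1 and 70.8 TPM).

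The number of a MOLM-13 library ordered the members more than its treatment did. Library 1 was the highest of its group in both DMSO and WM-1119 for 44 of 45 members (97.8%), all but PSMG4, and for 48.3% of all genes. Library 3 was the lowest of both groups for 29 members (64.4%) and 44.7% of all genes. The summed level of all members was 5637, 4107 and 3653 TPM in DMSO and 5573, 4360 and 4173 TPM with WM-1119. From DMSO library 3 to DMSO library 1 the median member differed by 0.65 on the log2(TPM + 1) scale, and the median gene by 0.32. Scaling by median-of-ratios size factors lowered these to 0.32 and 0.03, and library 1 was then highest in both groups for 34 members (75.6%) and 26% of all genes. Ribosomal protein genes took 25.3%, 26.8% and 37.6% of all TPM in DMSO libraries 1, 2 and 3 and 25.8%, 24.1% and 31.9% in the WM-1119 libraries. Library 3 of both groups also stood apart by erythroid markers: HBB was at 52.1 TPM in DMSO library 3 and 49.5 TPM in WM-1119 library 3, and HBA1 at 95.2 and 158 TPM, while in the other 4 libraries both lay between 0 and 0.44 TPM. The part of ribosomal protein genes and of these markers in the members' order was not tested. With library 3 of both groups left out and the library number as a block, 28 of 45 members (62.2%) had a positive change, beside 56.5% of all genes, with medians of 0.05 over members and 0.03 over all genes.

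**Figure D3:**
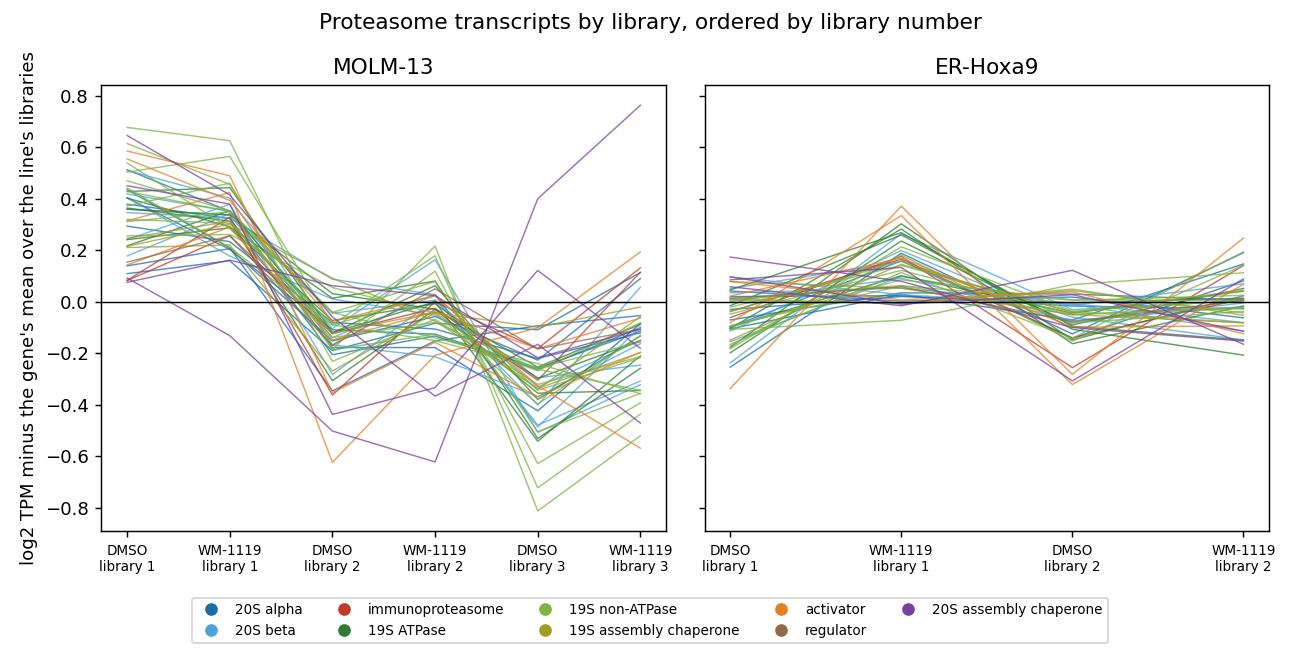
Log2 TPM of each tested member minus its mean over the line's libraries (vertical axis) in every DMSO and WM-1119 library, with same-numbered libraries side by side (horizontal axis), where each line joins the values of 1 gene and marks no order in time. In MOLM-13, library 1 is the highest of both groups for 44 of 45 members, and the line that rises toward library 3 is PSMG4.

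Same-numbered MOLM-13 libraries deviated together, so the fit was repeated with the number as a replicate block. limma with the block called 0 of 45 members, as it called 0% of all genes in either direction, and the lowest adjusted p of a member was 0.168 (PSMB8). The MOLM-13 SEs given above are from the fit without the block. With the block the SE was 0.063 in place of 0.20 for PSMB8, 0.063 in place of 0.31 for PSMG1 and 0.075 in place of 0.37 for PSMD2. At an unadjusted p under 0.05 the block gave 6 members higher, PSMB6, PSMB8, PSMB10, PSMC5, PSMD2 and PSME2, which is 13.3% of the members beside 13.2% of all genes. It gave 1 lower, PSMG1 (2.22% beside 4.91%). Adding median-of-ratios scaling to the block, these were PSMB6 and PSMB8 higher (4.44% beside 8.76%) and PSMD6 and PSMG1 lower (4.44% beside 9.24%). Members higher in all 3 pairs numbered 17 of 45 (37.8%, beside 28.6% of all genes), and those lower in all 3 were PSMD6 and PSMG1 (4.44%, beside 14.4%).

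**Figure D4:**
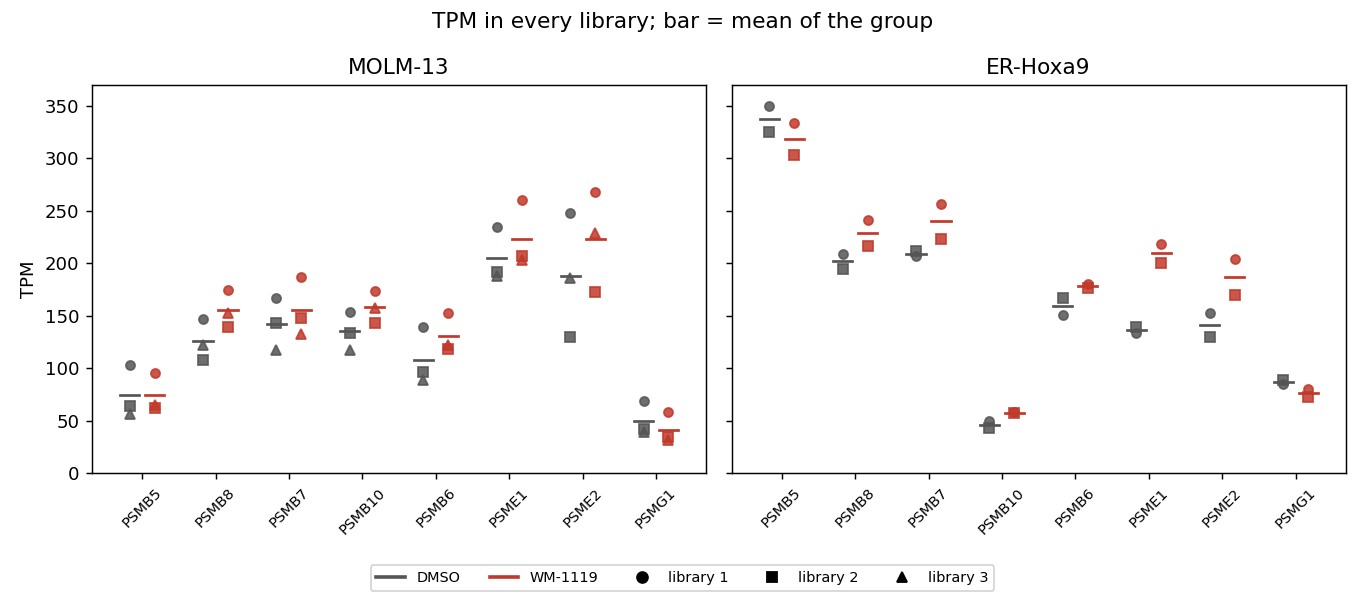
TPM in every library (vertical axis) for 8 catalytic, activator and assembly members, with human symbols for both lines, where colour gives the treatment, the marker's shape gives the library number and each horizontal bar is the mean of a group. In MOLM-13 the groups overlap for every member shown. In ER-Hoxa9, of the members shown, only the groups of Psmb5 overlap. With WM-1119 both libraries of Psmg1 are lower there, and those of Psmb6, Psmb7, Psmb8, Psmb10, Psme1 and Psme2 are higher. Of all genes in ER-Hoxa9, 40.3% are apart upward and 7.94% downward. Psme1 is at 134 and 139 TPM in DMSO and 218 and 200.5 TPM with WM-1119.

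The changes in MOLM-13 were also set beside the promoter elements, with no test. The 7 with a match had a median log2 change of 0.16, with 6 positive, and the 32 tested members whose window had no match had one of 0.08, with 25 positive. The 14 with the antioxidant core had a median of 0.13, with 10 positive and a range of -0.27 to 0.27. The 25 without it had a median of 0.08, with 21 positive and a range of -0.10 to 0.30. The highest member with the interferon element was PSMB8 at 0.30 and the lowest was PSMB4 at -0.08. The 5 with the same 10 letters had changes of 0.30 (PSMB8), 0.27 (PSME2), 0.23 (PSMB10), 0.12 (PSME1) and 0.01 (PSMG4), none past the test.

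In ER-Hoxa9 no proteasome gene passed the test either. In the fits without a block the median SE of a member was 0.11, against 0.24 in MOLM-13. With the replicate block this order did not hold for every member: the SE of PSMB8 was 0.063 in MOLM-13 and that of Psmb8 0.088 in ER-Hoxa9. limma with Benjamini-Hochberg adjustment over 11362 genes called 0 of 45 members higher and 0 lower, against 0.0176% of all genes in each direction and 0.0352% in all. At an unadjusted p under 0.05, 6 members were higher (13.3%, beside 11.6% of all genes) and 0 lower (beside 1.13%). The 6 were Psma1, Psmb10, Psmd2, Psmd13, Psme1 and Psme2. With the replicate block, limma called 0 members, and at an unadjusted p under 0.05 it added Psma4 and Psmc3, for 8 members (17.8%, beside 15.5%), with 0 lower (beside 2.4%). With the block on scaled libraries these were Psma1, Psme1 and Psme2 higher (6.67%, beside 9.24%) and Psmb5, Psme4, Psmg1 and Psmg3 lower (8.89%, beside 7.85%). With 2 libraries against 2, both WM-1119 libraries were above both DMSO libraries in 23 members (51.1%, beside 40.3% of all genes) and below them in 6 (13.3%, beside 7.94%). Both same-numbered pairs were higher in 28 members (62.2%, beside 53%) and lower in 9 (20%, beside 15.7%). An exact permutation test of one gene cannot give a two-sided p under 0.333 with these numbers, or under 0.1 with 3 libraries against 3.

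The direction of the whole table depended on scaling in this line. The log2 change was positive in 34 of 45 members (75.6%) and 71.9% of all genes and negative in 11 (24.4%) and 28.1%, with medians of 0.09 and 0.12. With median-of-ratios scaling it was positive in 18 members (40%) and 47.4% of all genes, with medians of -0.06 and -0.01. Values below are given on the TPM scale, on which the median gene was at 0.12.

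The activators Psme1 and Psme2 had the largest changes of the members. Psme1 was at 134 and 139 TPM in DMSO (mean 136 ± 3.65, SD, n = 2) and 218 and 200.5 TPM with WM-1119 (209.5 ± 12.8), a 1.54-fold ratio of means. Its log2 change was 0.62 (SE 0.11), larger than the spread within either group, with an unadjusted limma p of 0.00212 and a Benjamini-Hochberg adjusted p of 0.295. Of all genes tested, 92.8% had a smaller change, and with median-of-ratios scaling the change of Psme1 was 0.47. Psme2 was at 153 and 129 TPM in DMSO and 204 and 169.5 TPM with WM-1119 (log2 change 0.40, SE 0.15, limma adjusted p 0.378). Both genes were higher in both WM-1119 libraries than in either DMSO library. Psme2 has a near-identical copy, Psme2b, at 0.394 and 1.38 TPM in DMSO and 1.46 and 2.59 TPM with WM-1119, and how reads were split between them is uncertain. Psme1 per Psma7 transcript was 0.455 and 0.485 in DMSO and 0.741 and 0.704 with WM-1119, and Psma7 itself had a log2 change of -0.003. In MOLM-13 the ratio of PSME1 to PSMA7 overlapped, at 0.950, 1.335 and 1.094 in DMSO and 1.231, 1.259 and 1.156 with WM-1119. The nuclear activator Psme3 had a log2 change of 0.08 and the large activator Psme4 one of -0.11.

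The immunoproteasome subunits were higher in both WM-1119 libraries. Psmb10 was at 49.4 and 43.2 TPM in DMSO and 58.2 and 56.8 TPM with WM-1119 (log2 change 0.31, SE 0.12, limma adjusted p 0.384). Psmb8 was at 209 and 195 TPM in DMSO and 241 and 216 TPM with WM-1119 (log2 change 0.18, SE 0.11). Their constitutive counterparts Psmb5 and Psmb7 had changes of -0.09 (SE 0.11) and 0.19 (SE 0.12). Psmb5 was at 350.1 and 325 TPM in DMSO and 334 and 303 TPM with WM-1119, with overlapping groups. Psmb8 per Psmb5 transcript was 0.598 and 0.599 in DMSO and 0.721 and 0.715 with WM-1119, so the groups of this ratio did not overlap, while Psmb10 per Psmb7 transcript was 0.239 and 0.204 against 0.227 and 0.255 and overlapped.

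Among the other core subunits, Psma1 had the largest change, at 145 and 158 TPM in DMSO and 197 TPM in both WM-1119 libraries (log2 change 0.38, SE 0.11, limma adjusted p 0.313). Psma6, the most abundant member of this line, was at 378 and 372 TPM in DMSO and 368 and 352 TPM with WM-1119 (log2 change -0.06, SE 0.10), with both WM-1119 libraries lower. Psma3, the least abundant alpha subunit, had a log2 change of 0.04 and Psma5 one of 0.03. In the beta ring the range was -0.09 for Psmb5 to 0.27 for Psmb2, at 139.9 and 162 TPM in DMSO and 198 and 165 TPM with WM-1119. Psmb6 had a log2 change of 0.17, Psmb3 one of 0.07, Psmb1 one of 0.01 and Psmb4 one of -0.03.

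All 6 ATPase genes of the regulatory particle were positive, with a median of 0.20. Psmc3 had the largest change, at 111 and 114 TPM in DMSO and 155 and 128 TPM with WM-1119 (log2 change 0.32, SE 0.13), then Psmc1 (0.29) and Psmc4 (0.26). Psmc2 had the smallest at 0.06 (SE 0.18), and its WM-1119 libraries, 166 and 119 TPM, spanned its DMSO libraries, 142 and 128 TPM. With median-of-ratios scaling the class median was 0.06, and Psmc2 and Psmc5 turned to -0.09 and -0.04. Non-ATPase subunits were positive in 10 of 11 with a median of 0.09. The scaffold subunit Psmd2 was at 98.1 and 99.4 TPM in DMSO and 125 and 122 TPM with WM-1119 (log2 change 0.32, SE 0.10, limma adjusted p 0.34). Psmd13 was at 78.7 and 80.0 TPM in DMSO and 95.5 and 101 TPM with WM-1119 (log2 change 0.30, SE 0.10). Both groups were apart in these genes. Psmd11 had the lowest change of the class, -0.05 (SE 0.10), and Psmd1, Psmd6, Psmd8 and Psmd12 had values of 0.04 to 0.10 that turned negative with median-of-ratios scaling.

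Chaperones that build the core had a median of -0.10 and were the lowest class in this line. Psmg1 was at 84.8 and 88.6 TPM in DMSO and 80.5 and 72.6 TPM with WM-1119 (log2 change -0.18, SE 0.11), with both WM-1119 libraries lower. Psmg3 had a log2 change of -0.12 with groups that did not overlap, Psmg2 one of -0.07 and Psmg4 one of 0.22. The others whose WM-1119 libraries both lay below DMSO were Psma6, Psmd9, Psmd11 and Psme4. Psmf1, the least abundant member, had a log2 change of 0.06.

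The lines were set side by side by symbol. The change was positive in both lines for 30 of 45 members, negative in both for 5 and of opposite sign for 10. Of all genes, 61.5% were positive in MOLM-13 and 71.9% in ER-Hoxa9, and the share positive in both lines was not computed. PSMG1 and PSME4 were among those negative in both lines. PSMB8, PSMB10, PSME1 and PSME2 were positive in both under each scaling. The same held for PSMA1, PSMA4, PSMB2, PSMB6, PSMB7, PSMC3, PSMC4, PSMD2, PSMD10 and PSMD14. Some of these changes were far smaller than their SE with median-of-ratios scaling. PSMC3 was at 0.006 (SE 0.185) in MOLM-13, and Psmb6 at 0.021 (SE 0.095) and Psmb8 at 0.031 (SE 0.108) in ER-Hoxa9. None of these members passed the test. The difference between the lines' changes was tested with an interaction term in limma over the 8726 symbols tested in both. With Benjamini-Hochberg adjustment 0 of 45 members were called, against 0.0229% of all shared symbols with the change higher in ER-Hoxa9 and 0% with it lower, and 0 members had an unadjusted p under 0.05, against 2.12%. PSME1 had the lowest p, with a change 0.49 higher in ER-Hoxa9 (SE 0.26, unadjusted limma p 0.0844, adjusted p 1). This term was fitted without the library number. With the number as a replicate block within each line, limma again called 0 of 45 members, against 0.0344% of shared symbols, and 2 members, PSME1 and PSMC1, had an unadjusted p under 0.05 (4.44%, beside 14.5%). The blocked difference of PSME1 was 0.49 (SE 0.11, unadjusted limma p 0.00208, adjusted p 0.14) and that of PSMC1 was 0.31 (SE 0.12, adjusted p 0.308). The dose differed between the lines, so line and dose cannot be told apart.

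Other genes of proteasome structure, assembly and ubiquitin delivery were taken from a fixed list that holds NFE2L1, the ubiquitin genes, shuttle factors and deubiquitinases. In MOLM-13 19 of 32 were positive, beside 61.5% of all genes, with a median of 0.02 and 0 called by limma. In ER-Hoxa9 17 of 30 were positive, beside 71.9% of all genes, also with a median of 0.02 and 0 called. No gene of this list had an unadjusted p under 0.05 in either line. TXNDC17, a thioredoxin-like protein, had a log2 change of 0.34 (SE 0.22) in MOLM-13, and RPS27A, which encodes ubiquitin fused to a ribosomal protein, one of -0.15 (SE 0.16). Vcp, the unfoldase that hands ubiquitinated proteins to the proteasome, had one of 0.31 (SE 0.13) in ER-Hoxa9.

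Regulators and neighbours of the immunoproteasome genes in interferon signalling and antigen processing were positive in 7 of 8 in each line. Their medians were 0.13 in MOLM-13 and 0.21 in ER-Hoxa9, with 0 called by limma. Of all genes, 61.5% were positive in MOLM-13 and 71.9% in ER-Hoxa9, with medians of 0.05 and 0.12. The negative genes were IRF9 in MOLM-13 (-0.13) and Tap1 in ER-Hoxa9 (-0.05), where Nlrc5 was at 0.009. TAP2, a subunit of the peptide transporter, was at 16.3, 12.8 and 15.7 TPM in DMSO and 19.2, 14.9 and 18.1 TPM with WM-1119 in MOLM-13 (log2 change 0.21, SE 0.18). Irf1, a transcription factor that binds the interferon element, was at 11.9 and 16.6 TPM in DMSO and 18.1 and 23.1 TPM with WM-1119 in ER-Hoxa9 (log2 change 0.51, SE 0.21, limma Benjamini-Hochberg adjusted p 0.397). Irf8, a myeloid and lymphoid relative of Irf1, was at 0.773 and 3.80 TPM in DMSO and 4.53 and 8.01 TPM with WM-1119 (log2 change 1.27, SE 0.53, limma adjusted p 0.40). Both WM-1119 libraries were above both DMSO libraries for these regulators, and the DMSO libraries of Irf8 differed by more than the WM-1119 library 1 did from DMSO library 2.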

How the data were processed

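The authors deposited TPM per gene symbol, 1 table per line, and each library sums to 1000000. The submitters' processing notes name Salmon, hg38 and mm10. Salmon's version, the annotation and the use of strand were not given in the sources used here, and hg38 was assigned to the human and mm10 to the mouse table by species. TPM keep no depth, and an abundant transcript that rises lowers all others. Columns of the mouse table, named after a line absent from the labels, were taken as ER-Hoxa9, the only mouse line. In all, 0 columns were left unassigned and 0 pairs of libraries were identical.

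From these values, genes whose mean was at least 1 TPM were fitted per line on the log2(TPM + 1) scale in R 4.3.3, using lmFit and eBayes (trend) of limma 3.58.1 without a block, two-sided, with Benjamini-Hochberg adjustment over all genes tested and a call at an adjusted p under 0.05. Log2 changes understate those of low genes. The fits were tested on simulated data. Motifs were searched with Python 3.11.15 and figures drawn with matplotlib 3.10.9.

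Same-numbered MOLM-13 libraries deviated together from their group means (correlations across genes 0.522, 0.438 and 0.608, all over 0.1), so the numbers were taken to pair them. In ER-Hoxa9 the correlation was 0.206 for both of the 2 pairs, which is also over 0.1. It was lower than in MOLM-13 and was not taken as pairing, so pairing in ER-Hoxa9 is uncertain. Fits with and without the block are given for both lines. The labels do not say what a number marks. SEs are from the fits without a block unless the block is named.

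The members, classes and lists were chosen with earlier results of these data known. The text names every member called, the catalytic, activator and assembly genes, the extremes of each class by change and level, and the related genes with the 3 smallest p per line, while examples beyond that were chosen after their values were seen. PSME3IP1 was not found under that symbol and is not analysed here. Alternatives were another pseudocount (0.1), no filter or a mean of at least 5 TPM, median-of-ratios scaling, removal of microRNA entries, the replicate block and leaving out each library. Scaled ranks of library 1 were added after seeing the data. Mouse sequence was not used here.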

Additional observations from a re-analysis of the deposited data

How the results depend on the processing

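Under every alternative run, 0 members were called by limma in either line and in the interaction. Over all genes, MOLM-13 calls higher went from 0 to 4 with no filter, and the 1 call lower went to 0 with the replicate block, alone, with median-of-ratios scaling or without replicate 3. Without 1 library at a time they were 0 to 1 higher and 0 to 5 lower (5 without DMSO library 2). In ER-Hoxa9 the 2 calls higher and 2 lower went to 0 and 0 with a pseudocount of 0.1, a mean of at least 5 TPM, the replicate block, the block with median-of-ratios scaling, or any library left out. They went to 1 and 0 with no filter or with microRNA entries removed, and to 1 higher with median-of-ratios scaling. The interaction had 1 to 2 calls without 1 library. The members' median in ER-Hoxa9 was -0.056 with median-of-ratios scaling, with or without the replicate block, and 0.034 (without WM-1119 library 1) to 0.17 (without WM-1119 library 2) otherwise. In MOLM-13 it was -0.071 (without DMSO library 3) to 0.254 (without DMSO library 1). The replicate block changed no call of a member.

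The log2 changes of some named genes, none past the test, changed sign. With median-of-ratios scaling, with or without the replicate block, MOLM-13 gave PSMB5 -0.053, PSMG2 -0.018, PSMG4 -0.061, PSMA7 -0.068, PSMA5 -0.011, PSMB1 -0.04, PSMA3 -0.012 and VCP -0.019. ER-Hoxa9 gave Psme3 -0.07, Psmf1 -0.078, Psma5 -0.112, Psmb1 -0.138, Psmc5 -0.036, Psmc2 -0.085, Psmd1 -0.05, Psmd6 -0.105, Psmd8 -0.103, Psmd12 -0.059, Txndc17 -0.082, Psma3 -0.105 and Psmb3 -0.074. With microRNA entries removed, MOLM-13 gave PSMG4 -0.006 and PSMA7 -0.012. With the replicate block and without replicate 3 of both groups it gave PSMB5 -0.076, PSMG3 0.015, PSMG4 -0.167, PSMA7 -0.017, PSMB1 -0.04, PSMA3 -0.08 and PSMC3 -0.021. Without 1 library at a time the ranges in MOLM-13 were PSMB5 -0.177 to 0.273, PSMB7 -0.007 to 0.252, PSME3 -0.13 to 0.399, PSME4 -0.3 to 0.144, PSMG2 -0.042 to 0.118, PSMG3 -0.322 to 0.11, PSMG4 -0.364 to 0.312, PSMA6 -0.158 to 0.17, PSMA7 -0.169 to 0.219, PSMA5 -0.085 to 0.255, PSMB4 -0.247 to 0.102, PSMB1 -0.201 to 0.21, PSMB2 -0.089 to 0.355, PSMC1 -0.205 to 0.148, PSMC2 -0.075 to 0.398, PSMD1 -0.134 to 0.589, PSMD6 -0.293 to 0.091, PSMD8 -0.075 to 0.254, PSMD12 -0.198 to 0.134, PSMA3 -0.137 to 0.327, PSMB3 -0.022 to 0.398, PSMC3 -0.168 to 0.294, PSMD2 -0.104 to 0.502, PSMD11 -0.157 to 0.44, IRF1 -0.007 to 0.277, VCP -0.242 to 0.39 and IRF8 -0.075 to 0.45. In ER-Hoxa9 they were Psme3 -0.055 to 0.207, Psmg2 -0.208 to 0.063, Psma7 -0.029 to 0.022, Psmb4 -0.095 to 0.038, Psmb1 -0.143 to 0.16, Psmc5 -0.092 to 0.313, Psmc2 -0.175 to 0.297, Psmd6 -0.05 to 0.132, Txndc17 -0.022 to 0.143, Tap2 -0.089 to 0.404 and Psma3 -0.009 to 0.09. Where a group of ER-Hoxa9 was left with 1 library, that library was assumed to vary like the others. The cause of these shifts was not tested. TPM keep no depth, so what depth limits could not be given.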
